A study of Mus musculus with 4 samples.

Results

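Transcription of the glucocorticoid receptor gene Nr3c1 and of 5 genes known as targets of the receptor, Tsc22d3, Fkbp5, Sgk1, Ddit4 and Txnip, was compared between Tox4 WT and Tox4 cKO thymocytes. The 6 genes were taken by symbol from a table of 24984 genes, and all 6 were present. The measurement was TTchem-seq, in which cells are briefly fed 4-thiouridine and the RNA that took it up is captured and sequenced, so that counts follow ongoing transcription more closely than total RNA does. The cells were double positive (DP) thymocytes, the immature T cells that carry both CD4 and CD8. There were 2 WT libraries (genotype Tox4;F/F) and 2 cKO libraries (genotype Tox4;F/F;Lck+). Both genotypes carried loxP sites around Tox4 exons 4 to 6, and the cKO mice also carried Cre under the proximal Lck promoter, which is active in T cell precursors before the DP stage. The study's methods describe sex-matched littermates of 6 to 8 weeks on a C57BL/6 background, although the level of Xist differed between the libraries. How the DP cells of these libraries were purified is not given in the sources used here, and they were held in fresh medium before labelling. Neither the labels nor the methods named an added glucocorticoid or a receptor blocker.

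The glucocorticoid receptor is a nuclear receptor held in the cytoplasm by heat shock proteins and immunophilins until a steroid binds it. It then enters the nucleus, where it activates genes from palindromic DNA elements and lowers the output of others, many of them driven by AP-1 and NF-kB. DP thymocytes are known for dying readily when exposed to glucocorticoids, and the thymic epithelium can itself make such steroids.

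The sequences that bear on a receptor element or on the promoters of the genes that changed are printed from the RefSeq promoter table and the genome, build GRCm38.p6. The palindrome searched was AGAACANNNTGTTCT, and its looser core was GNACANNNTGTNC, both read on either strand. The full palindrome was in 3 of 32851 promoter windows (0.00913%), each 250 bases before to 50 after a gene start, and 1 of these was a start of Sgk1. The core was in 156 windows (0.475%), among them that start of Sgk1 and the only start of Txnip. Within the gene spans and 10000 bases on either side, the full palindrome was found in 1.67% of 11554 tested genes, with 2 matches in Fkbp5, 1 in Sgk1 and 0 in the other 4 genes, all 3 of them outside exons and inside the counted spans. The Fkbp5 matches lay 65.828 and 43.73 kb into the gene from its start. The core, which includes the full palindromes, occurred 7 times in Fkbp5 (6.52 per 100 kb) and 5 times in Sgk1 (3.63). There was 1 match in Txnip (4.18) and 1 in Nr3c1 (0.776), and neither Tsc22d3 nor Ddit4 held any. Over all 11554 genes the density was 1.80 per 100 kb. The 3 palindromes are shown in capitals with 40 bases on each side, on the plus strand.
Sgk1, chr10:21993661-21993755: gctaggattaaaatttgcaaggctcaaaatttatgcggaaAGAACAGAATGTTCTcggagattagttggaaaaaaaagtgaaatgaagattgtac
Fkbp5, chr17:28420281-28420375: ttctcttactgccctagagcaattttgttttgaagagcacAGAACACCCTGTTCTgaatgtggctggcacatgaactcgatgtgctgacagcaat
Fkbp5, chr17:28442379-28442473: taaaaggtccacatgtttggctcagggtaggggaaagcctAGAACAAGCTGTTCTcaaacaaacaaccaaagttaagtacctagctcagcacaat

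The 12 promoter windows searched for these genes belonged to the 5 targets, and windows of Nr3c1 were not analysed here. The promoters of the called targets are given in the direction of transcription. Capitals mark the CCAAT box (CCAAT or, on the other strand, ATTGG), the palindrome core and, in Txnip, the carbohydrate response repeat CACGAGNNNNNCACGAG. A CCAAT box was in 37.4% of all promoter windows, including windows of Ddit4, Fkbp5, Sgk1 and Txnip. This exact spelling of the repeat was in 1 of 32851 windows (0.00304%), that of Txnip, and began 85 bases before the start. Looser forms of the repeat were not searched, so this share does not say how rare such elements are. A match of letters is a description and not evidence of binding.
Fkbp5, chr17:28486100-28486399, minus strand: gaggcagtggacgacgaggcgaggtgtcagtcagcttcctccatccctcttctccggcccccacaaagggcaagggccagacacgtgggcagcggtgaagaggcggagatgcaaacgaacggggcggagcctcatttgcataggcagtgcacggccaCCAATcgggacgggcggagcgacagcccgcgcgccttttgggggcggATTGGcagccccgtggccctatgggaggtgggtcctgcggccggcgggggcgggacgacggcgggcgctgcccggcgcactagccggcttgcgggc
Ddit4, chr10:59951721-59952020, minus strand: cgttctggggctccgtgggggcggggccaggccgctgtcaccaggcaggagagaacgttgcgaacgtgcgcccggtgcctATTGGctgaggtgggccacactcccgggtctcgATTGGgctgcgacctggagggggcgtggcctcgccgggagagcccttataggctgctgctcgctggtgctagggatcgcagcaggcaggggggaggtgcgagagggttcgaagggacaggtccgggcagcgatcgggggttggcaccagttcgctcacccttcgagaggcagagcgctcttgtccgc
Txnip, chr3:96557707-96558006, plus strand: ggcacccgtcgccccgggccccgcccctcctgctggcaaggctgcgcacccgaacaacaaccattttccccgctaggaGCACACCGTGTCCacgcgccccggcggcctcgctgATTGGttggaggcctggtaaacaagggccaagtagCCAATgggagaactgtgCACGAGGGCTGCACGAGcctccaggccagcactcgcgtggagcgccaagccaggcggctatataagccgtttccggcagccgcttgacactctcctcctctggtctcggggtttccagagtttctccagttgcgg

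The 4 libraries held 38429786 to 48690591 fragments assigned to genes, and the 6 genes had from 653 to 23432 fragments in a library. Levels are given as CPM, the fragments of a gene scaled to a library total of 1000000. A gene was called when its Benjamini-Hochberg adjusted p from DESeq2 was below 0.05, its fold change at least 1.2 and its mean at least 1 CPM, and 11625 genes were tested. Tox4 itself fell by 0.31 on the log2 scale (adjusted p = 0.0453), from 74.04 and 70.3 CPM in WT to 59.3 and 57.2 CPM in cKO, a count over the whole gene rather than the deleted exons. Tox4 overlaps Mettl3 and Rab2b on the other strand, whose counts were up to 34.4% and 47.4% of its own, and whether counting used strand is not given in the sources used here. This call was lost in edgeR (adjusted p = 0.153) and on leaving out any 1 of the 4 libraries (adjusted p 0.196 to 0.792). The X-inactivation transcript Xist stood at 172 CPM in the first WT library and did not exceed 2.36 CPM elsewhere, which goes against one sex for all 4 libraries. Ribosomal RNA from Rn45s took 2.71 and 4.30% of fragments in WT replicates 1 and 2, and 2.44 and 4.05% in cKO replicates 1 and 2, so that it followed the replicate number more than the genotype. The labels did not say that the libraries came from separate mice, so the p-values measure the spread between these samples.

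In cKO cells, transcription of the receptor gene and of its co-chaperone Fkbp5 rose, that of Ddit4 and Txnip fell, and that of Tsc22d3 and Sgk1 did not pass the test. Hence 4 of the 6 genes were called, against 3.71% of all genes tested, with 2 increased (2.14% of all genes) and 2 decreased (1.57%). For Nr3c1 and Fkbp5 the 2 cKO values exceeded the 2 WT values, an arrangement seen in 24.9% of all genes. The cKO values were below both WT values for Ddit4, Txnip and Tsc22d3, an arrangement seen in 24.0%. The 5 targets therefore did not move in one direction with the receptor gene. By the stricter edgeR quasi-likelihood test 1 of the 6 was called (Nr3c1), when 0.499% of all genes were, and by limma voom 2 were called (Nr3c1 and Fkbp5), when 0.525% of all genes were.

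**Figure D1:**
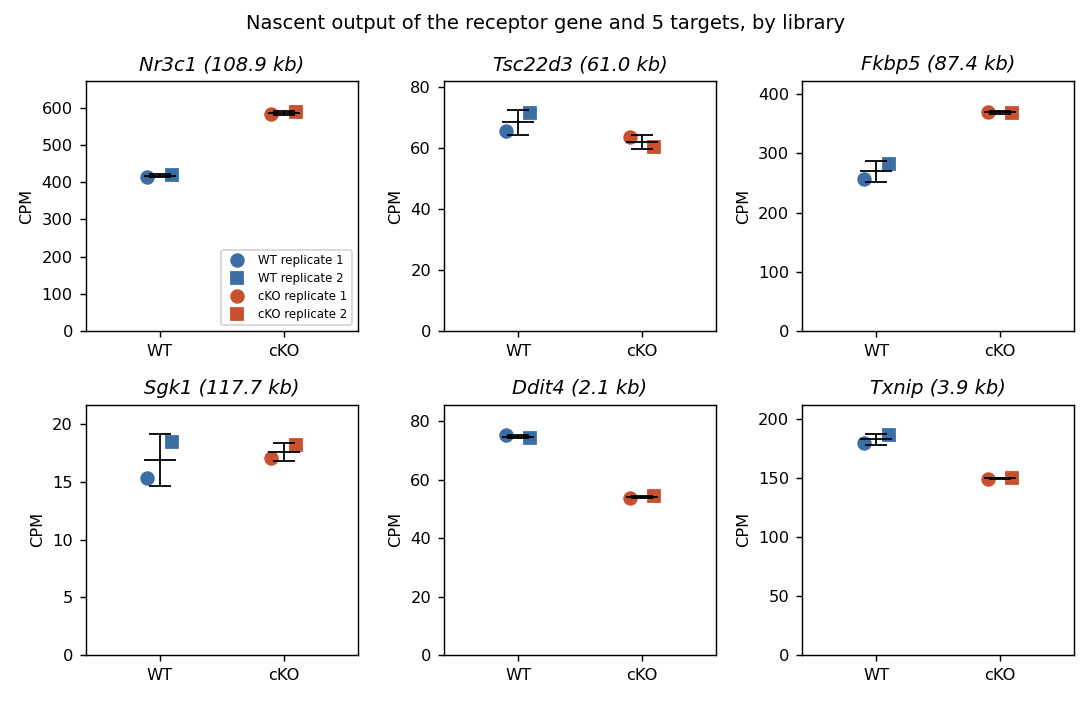
Level of the receptor gene and its 5 targets in each library, in CPM, with 1 panel per gene and its own axis from 0. Points are libraries (2 WT in blue, 2 cKO in red), and black lines are the group mean ± SD. The cKO points lie above both WT points for Nr3c1 and Fkbp5, below them for Ddit4, Txnip and Tsc22d3, and among them for Sgk1.

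Nr3c1, which encodes the receptor, lies on the minus strand of chromosome 18 (39410545 to 39519421, GRCm38), spans 108.877 kb with 5 annotated starts, and is 6.77% exonic. Its level was 415 and 420.0 CPM in the 2 WT libraries and 582 and 589 CPM in the 2 cKO libraries. The replicates of each genotype lay close together and the groups were far apart. WT libraries averaged 418 ± 3.42 CPM (SD, n = 2), whereas those of cKO averaged 586 ± 5.09 CPM (SD, n = 2). The difference was 0.49 on the log2 scale (SE 0.0694), a 1.40-fold increase with a 95% interval of 1.27 to 1.54 (DESeq2, adjusted p = 1.45e-09). It was also past the threshold in edgeR (adjusted p = 0.0322), in limma voom (adjusted p = 0.0243) and on leaving out any 1 of the 4 libraries. Because the count covers all starts and introns together, it does not tell the starts apart.

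Fkbp5 encodes the immunophilin FKBP51, which binds the receptor complex and lowers its affinity for steroid, and is itself induced by the receptor. It lies on chromosome 17 (28398753 to 28486149, minus strand, GRCm38), spans 87.397 kb from 1 start, and holds both intronic palindromes printed above. Its level was 257 and 282 CPM in WT and 369.9 and 367 CPM in cKO. Both cKO libraries were higher than both WT libraries, and the WT pair was the more spread of the 2 pairs. The means were 269 ± 17.7 CPM (SD, n = 2) and 369 ± 1.86 CPM (SD, n = 2). The increase was 0.45 on the log2 scale (SE 0.0791), or 1.37-fold with a 95% interval of 1.23 to 1.52 (DESeq2, adjusted p = 2.98e-06). The call held on leaving out any 1 of the 4 libraries (adjusted p at most 0.0381) and in limma voom (adjusted p = 0.0404), but edgeR gave an adjusted p of 0.0557.

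Tsc22d3 encodes GILZ, a leucine zipper protein that is among the receptor's best known induced genes in lymphocytes and that restrains NF-kB and AP-1. It lies on the X chromosome (140539529 to 140600522, minus strand, GRCm38), spans 60.994 kb with 3 annotated starts, and none of its 3 promoter windows held the palindrome or its core. The level was 65.4 and 71.2 CPM in WT and 63.5 and 60.3 CPM in cKO. All 4 values lay within a narrow range, with the cKO pair just below the WT pair. The difference was -0.14 on the log2 scale (SE 0.104, 95% interval -0.35 to 0.06), with an adjusted p of 0.594 in DESeq2. The interval of the fold change, 0.786 to 1.04, did not reach the 1.40-fold increase of the receptor gene. The X-linked Xist was high in WT replicate 1 alone, whose Tsc22d3 level was the lower of the WT pair, and the part of this in the Tsc22d3 result was not tested.

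Sgk1 encodes a serine/threonine kinase of the AGC family that acts on ion channels and FOXO factors and is induced by glucocorticoids and mineralocorticoids in many tissues. It lies on chromosome 10 (21882184 to 21999902, plus strand, GRCm38), spans 117.719 kb with 6 annotated starts, and carries the palindrome printed above 189 bases before 1 of them. The level was 15.3 and 18.5 CPM in WT and 17.1 and 18.2 CPM in cKO. Both cKO values lay between the WT values. The difference was 0.06 on the log2 scale (SE 0.172), with a 95% interval of the fold change from 0.823 to 1.31 (DESeq2, adjusted p = 0.944). A change within that interval is not excluded, and the interval is not a limit of detection. The sign of the difference turned without WT replicate 1, to -0.081. Sgk1 was the least covered of the 6 genes, with 653 to 900.0 fragments.

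Ddit4 encodes REDD1, a stress protein that restrains mTORC1 and is induced by glucocorticoids as well as by hypoxia and DNA damage. It is short, with 2.096 kb on chromosome 10 (59949675 to 59951770, minus strand, GRCm38), and is 80.4% exonic. The level was 75.3 and 74.4 CPM in WT and 53.8 and 54.3 CPM in cKO. The groups did not overlap, and the spread inside each was below 1 CPM. The means were 74.8 ± 0.630 CPM (SD, n = 2) and 54.0 ± 0.400 CPM (SD, n = 2), so that Ddit4 was 27.9% lower in cKO. The log2 difference was -0.47 (SE 0.0989, 95% interval -0.67 to -0.28; DESeq2, adjusted p = 1.92e-04). The call was lost without cKO replicate 1 (adjusted p = 0.145) and without cKO replicate 2 (adjusted p = 0.121), in edgeR (adjusted p = 0.0557) and in limma voom (adjusted p = 0.0503).

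Txnip encodes an arrestin family protein that binds thioredoxin and limits glucose uptake, and it responds to glucose through the carbohydrate repeat as well as to glucocorticoids. It spans 3.901 kb on chromosome 3 (96557957 to 96561857, plus strand, GRCm38) and is 71.8% exonic. The level was 179.6 and 186 CPM in WT and 149 and 150.3 CPM in cKO. The 2 groups were again apart, by less than for Ddit4. The means were 183 ± 4.76 CPM (SD, n = 2) and 149.8 ± 0.608 CPM (SD, n = 2), or 18.3% lower in cKO. The log2 difference was -0.29 (SE 0.0804, 95% interval -0.45 to -0.13; DESeq2, adjusted p = 0.0113). The call was lost on leaving out any 1 of the 4 libraries, with adjusted p = 0.0932 and 0.200 without WT replicates 1 and 2, and 0.586 and 0.532 without cKO replicates 1 and 2. It was also lost in edgeR (adjusted p = 0.124) and limma voom (adjusted p = 0.111). Txnip lies inside Gm15441, a gene on the other strand, whose count was at most 1.04% of that of Txnip.

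The replicates of the called genes differed little from each other. The second WT library minus the first, on the log2 scale, was 0.02 for Nr3c1, 0.13 for Fkbp5, -0.02 for Ddit4 and 0.05 for Txnip, where the median size over all tested genes was 0.11. In cKO the gaps were 0.02, -0.01, 0.01 and 0.01, against a median size of 0.12. The largest gap was that of Sgk1 in WT, at 0.26. Fkbp5 in WT was thus slightly above the typical gap between replicates, and the other called genes were below it. The medians cover all genes from a mean of 1 CPM up, and a small gap itself favours a call.

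**Figure D2:**
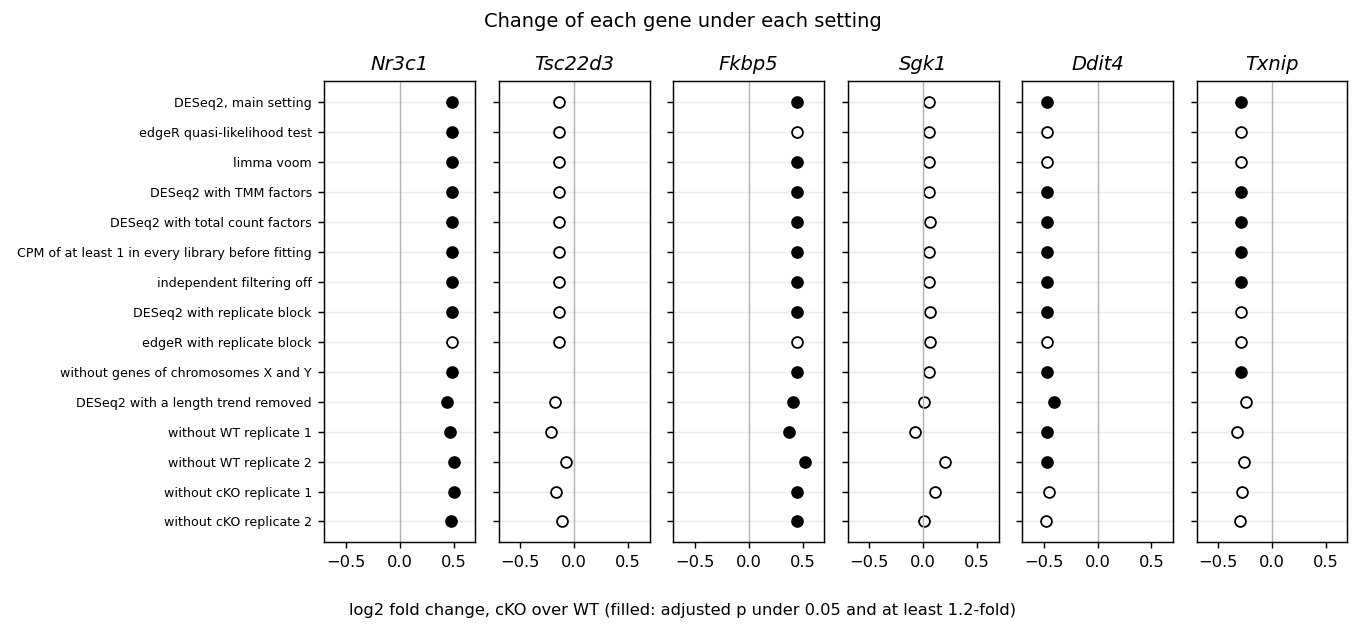
The log2 fold change, cKO over WT, of each of the 6 genes under every setting tried, with 1 point per setting and filled points where the gene was called. Nr3c1 and Fkbp5 stay above 0 and Ddit4 and Txnip below 0 in every setting shown, while fewer settings call Txnip, and Sgk1 lies on both sides of 0. Tsc22d3 has no point in the setting without genes of chromosomes X and Y.

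Transcription per length of gene ordered the 6 genes differently from their counts. Per kb of gene span, Txnip stood highest at 42.7 ± 4.95 CPM per kb (SD over 4 libraries), higher than 99.1% of tested genes. Ddit4 followed at 30.7 ± 5.72, Nr3c1 at 4.61 ± 0.892 and Fkbp5 at 3.65 ± 0.666 CPM per kb. Both short genes are mainly exonic, while the others are mainly intronic. Tsc22d3 was at 1.07 ± 0.0748 and Sgk1 at 0.147 ± 0.0121 CPM per kb, spans that include long stretches before their inner starts. Within each library this order held, with Txnip 1.28 to 1.49 times Ddit4 and Nr3c1 1.196 to 1.297 times Fkbp5. The per kb ranges of Nr3c1 and Fkbp5 over the 4 libraries overlapped. Ddit4 was 9.42 and 9.20 times Nr3c1 per kb in WT and 4.797 and 4.788 times in cKO.

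Each target was also set against the receptor gene in the same library. The ratio of Fkbp5 to Nr3c1 CPM was 0.619 and 0.671 in WT and 0.635 and 0.623 in cKO. The WT and cKO values of this ratio overlapped. For Ddit4 the ratio was 0.181 and 0.177 in WT and 0.0924 and 0.0922 in cKO. For Txnip it was 0.433 and 0.444 in WT and 0.257 and 0.255 in cKO. For Tsc22d3 it was 0.157 and 0.1695 in WT and 0.109 and 0.102 in cKO. Those 3 ratios were all lower in cKO, as was that of Sgk1, at 0.0369 and 0.0440 in WT and 0.0293 and 0.0308 in cKO. These ratios rest on the same counts as the fold changes and were not tested separately.

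The rest of the pathway was read from 6 lists with 94 genes, of which 74 had a mean of at least 1 CPM. DESeq2 called 9 of them (12.2%, against 3.71% of all genes tested), 4 increased and 5 decreased, with a median log2 difference of -0.03, where that of all genes was 0.00. In edgeR 0 of these genes were called and in limma voom 0, with 18 of 74 at an unadjusted p below 0.05 in each, as were 1811 and 1835 of all 11625 genes. Without WT replicates 1 and 2, DESeq2 called 1 and 5, and without cKO replicates 1 and 2 it called 3 and 0, the last with 8 at an unadjusted p below 0.05. The machinery that folds, carries and assists the receptor (Hsp90, immunophilins, coactivators, chromatin remodellers) had 20 of 20 genes tested and 0 called, and 0 at an unadjusted p below 0.05 in DESeq2, edgeR or limma voom. Their log2 differences ran from -0.16 to 0.12, with -0.03 as the median. The most abundant were the coactivator Ncoa2, at 1289 and 1140.0 CPM in WT and 1316 and 1258 CPM in cKO, and the remodeller Smarca4, at 903 and 873 CPM in WT and 874 and 898 CPM in cKO. The log2 differences of Nr3c1 and Fkbp5, 0.49 and 0.45, lay outside that range.

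**Figure D3:**
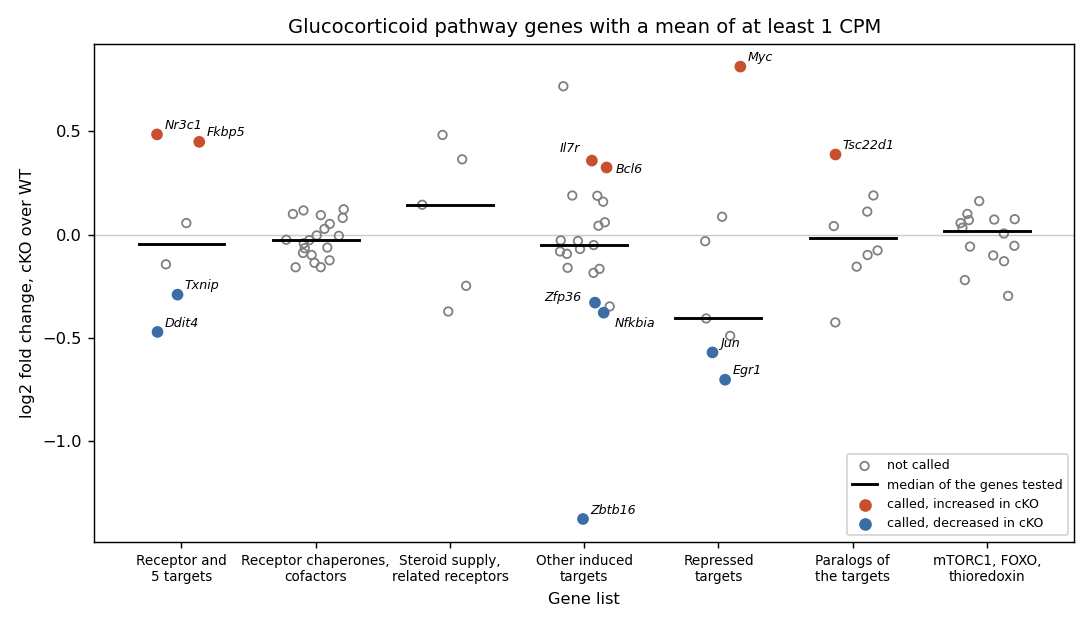
The log2 fold change, cKO over WT, of every gene with a mean of at least 1 CPM in the receptor set and 6 pathway lists. Filled points are genes called by DESeq2 (red higher, blue lower), open points were not called, and black lines are list medians. The 20 receptor partners lie between -0.16 and 0.12, while the lists of induced and repressed targets hold called genes on both sides of 0.

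Of 26 other induced targets, 21 were tested, 2 rose (2.14% of all genes) and 3 fell (1.57%), with a median log2 difference of -0.05. Il7r, the IL-7 receptor chain that sustains T cell survival, was at 62.0 and 61.7 CPM in WT and 83.1 and 75.8 CPM in cKO (0.36; DESeq2, adjusted p = 0.0125). Bcl6, a transcriptional repressor, was at 144 and 176 CPM in WT and 208 and 193 CPM in cKO (0.33; adjusted p = 0.0388). These were the increased genes of the list. Nfkbia, which encodes the NF-kB inhibitor, fell from 218 and 240.2 to 197 and 156 CPM (-0.38; adjusted p = 0.0144). Zfp36, which encodes an mRNA decay factor, fell from 102 and 109 to 78.7 and 89.8 CPM (-0.33; adjusted p = 0.0317). Zbtb16, the transcription factor of innate-like T cells, fell from 20.5 and 12.7 to 7.55 and 5.23 CPM, a log2 difference of -1.38. Leaving out 1 library moved some of these values. Bcl6 was 0.18 without WT replicate 1 (DESeq2, adjusted p = 0.833) and 0.48 without WT replicate 2, and Nfkbia was -0.22 without cKO replicate 2 (adjusted p = 0.882) and -0.55 without cKO replicate 1. Each was called in the second of its pair of fits alone, Il7r and Zfp36 in none of the 4, and Zbtb16 only without WT replicate 2 or cKO replicate 1. The most abundant genes of the list, Klf13 and Foxo3, differed by -0.09 and -0.03 and were not called.

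Among 14 genes known to be repressed by the receptor, 7 were tested, 1 rose (2.14% of all genes) and 2 fell (1.57%), with a median log2 difference of -0.41 where that of all genes was 0.00. Myc, a driver of growth, went from 6.63 and 9.51 CPM in WT to 14.8 and 13.6 CPM in cKO (0.81; DESeq2, adjusted p = 0.0103). Jun, a subunit of AP-1, went from 41.1 and 53.4 to 35.2 and 28.6 CPM (-0.57; adjusted p = 0.0077). Egr1, an immediate early factor, went from 19.1 and 16.9 to 10.6 and 11.5 CPM (-0.70; adjusted p = 0.0041). Jun was -0.36 without WT replicate 2 (DESeq2, adjusted p = 0.473) and was not called without cKO replicate 2 either (-0.43; adjusted p = 0.677). Myc was called only without WT replicate 2, and Egr1 in none of the 4 fits that left out 1 library. The most abundant gene of this list, Nr4a1, differed by -0.03 and was not called.

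Paralogs of the targets were mostly without a call. Of 12, 8 were tested and 1 rose (2.14% of all genes), Tsc22d1, a leucine zipper relative of Tsc22d3, from 45.2 and 51.8 CPM in WT to 65.5 and 61.7 CPM in cKO (0.39; DESeq2, adjusted p = 0.0196). Of the fits that left out 1 library, the one without WT replicate 2 alone called Tsc22d1. The more abundant Tsc22d4 and Tsc22d2 differed by 0.11 and 0.04 and were not called. The mTORC1, FOXO and thioredoxin list, which holds the pathways that Ddit4, Sgk1 and Txnip act on, had 14 of 15 genes tested and 0 called by DESeq2, edgeR or limma voom, with 2 at an unadjusted p below 0.05 in each, as were 1570, 1811 and 1835 of all 11625 genes. Its log2 differences ran from -0.30 to 0.16, with a median of 0.02. Its most abundant genes were Rptor, the mTORC1 scaffold, at 0.07, and Nedd4l, a ubiquitin ligase that SGK1 phosphorylates, at 0.16. Genes of steroid supply and related receptors had 5 of 8 tested and 0 called by any of the 3 tools, with 1 at an unadjusted p below 0.05 in DESeq2 and 2 in edgeR. Hsd11b1, which regenerates active glucocorticoid, differed by -0.37 (DESeq2, adjusted p = 0.361), and leaving out WT replicate 1 or 2 moved this value to -0.52 or -0.21.

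The genes most like Nr3c1 across the 4 libraries were found by the root mean square difference of centred log2(CPM + 0.5) among 8152 genes of at least 10 CPM. Myb was nearest (0.0186 log2 units), at 579 and 584 CPM in WT and 807 and 844 CPM in cKO. Tmtc4 (0.0201) and Rnf125 (0.0332) followed. Of these, Myb and Rnf125 were called (log2 differences of 0.50 and 0.43; DESeq2, adjusted p = 3.91e-10 and 2.63e-06), while Tmtc4 was not (0.47; adjusted p = 0.148). Only 27 genes lay within 0.05 of Nr3c1, while 416 lay within 0.05 of Tsc22d3, nearest among them Irf3 (0.00675), Eif3i (0.00869) and Ap2a1 (0.00892). Because the measure includes the difference between genotypes, both the calls of the neighbours and these counts follow in part from the fold changes.

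Nr3c1 and Fkbp5 are long genes and Ddit4 and Txnip short ones, and over all tested genes the median fold change rose with length class. Genes of up to 5 kb, which include Ddit4 and Txnip, had a median log2 difference of -0.07, with 1 of 1511 increased and 25 decreased. Genes of over 100 kb, which include Nr3c1 and Sgk1, had a median of 0.04, with 93 of 1416 increased and 37 decreased. Genes of 30 to 100 kb, which include Fkbp5 and Tsc22d3, had a median of 0.03, with 95 of 3316 increased and 36 decreased. With a smooth trend of length removed, the log2 differences were 0.44 for Nr3c1 (DESeq2, adjusted p = 1.61e-08), 0.41 for Fkbp5 (adjusted p = 2.81e-05) and -0.41 for Ddit4 (adjusted p = 0.00662). Txnip fell short at -0.24 (adjusted p = 0.0611).

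**Figure D4:**
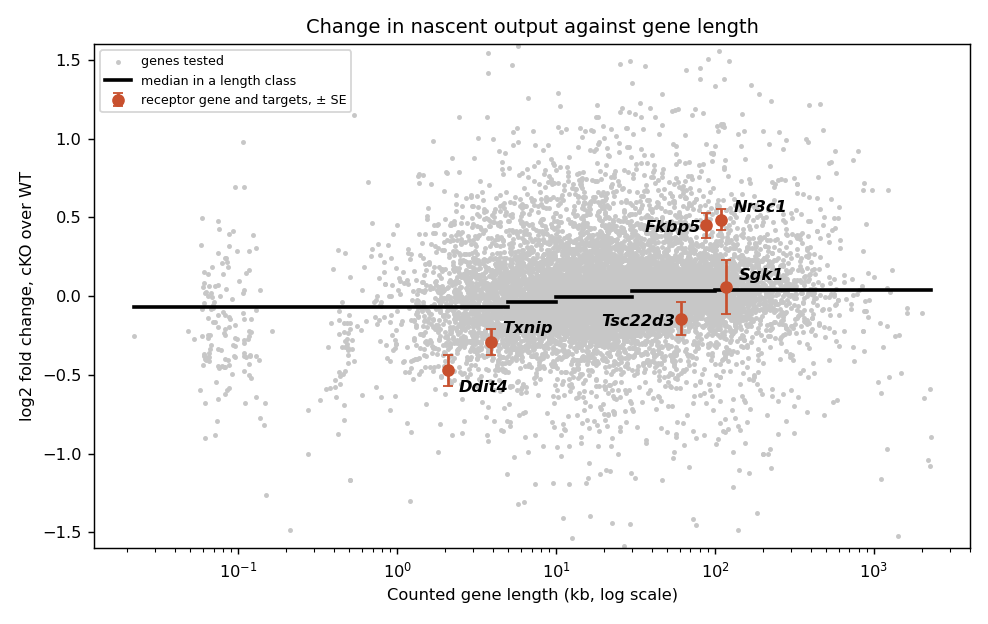
The log2 fold change, cKO over WT, against gene length in kb (log axis) for all tested genes in grey, with the 6 genes in red (bars are ± SE) and black lines at the median of each of 5 length classes. The vertical axis ends at 1.6 on either side, which leaves 16 genes outside. Ddit4 and Txnip lie among the short genes below 0, and Nr3c1 and Fkbp5 among the long genes above it.

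Markers of DP cells were present, with 9 of 9 at 1 CPM or more and a summed level of 6244 to 7081 CPM in WT and 6533 to 6934 CPM in cKO, although Cd8a and Rag1 among them fell (-0.54 and -0.31; DESeq2, adjusted p = 1.21e-05 and 0.0499). Markers of mature single positive cells, 7 of 8 at 1 CPM or more, summed to 492 to 497 CPM in WT and 425 to 493 CPM in cKO, with Gzmk at 0. Among them Ccr7 fell (-0.34) while Runx3 rose (0.42; DESeq2, adjusted p = 0.00714 and 0.00472). In edgeR none of these 4 markers was called (adjusted p = 0.108 for Cd8a, 0.291 for Rag1, 0.164 for Ccr7 and 0.103 for Runx3). Il7r, which also rose in DESeq2, is higher in mature cells. Erythroid, B cell and myeloid markers summed to at most 0.729, 6.04 and 12.3 CPM in any library. Stromal markers summed to 361 to 417 CPM, nearly all from Pecam1. In bulk RNA, fewer cells of a type and less RNA per cell cannot be told apart, and the part of cell makeup in the changes of Nr3c1, Fkbp5, Ddit4 and Txnip was not tested.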

How the data were processed

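TTchem-seq was made from DP thymocytes of 2 WT and 2 cKO samples. Per the labels and methods, the authors filtered reads with fastp 0.13.1 and aligned them to mm10 with STAR 2.7.9a, and the processing notes also name featureCounts 1.6.1. Whether strand or duplicates entered the counting is not given in the sources used here. The deposited table holds expected counts of fragments over whole transcript spans, introns included, in which 8.61% of values are not whole, with gene length in bases as an other column. The labels describe polyA capture, whereas the methods describe 4-thiouridine capture with ribosomal RNA removed. The yeast spike-in was not used, so CPM values are relative to the library total. Fold changes in the reported setting are relative to the default DESeq2 size factors.

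Counts were rounded and compared with DESeq2 1.42.0 (Wald test, default size factors, Benjamini-Hochberg adjustment), the test of the methods. Alternatives were edgeR 4.0.16, limma 3.58.1 voom, other scalings, filters, a replicate block and leaving out each library. The fitting was tested on simulated data. With 2 libraries a genotype, an exact permutation test cannot go below p = 0.333. Named were Tox4, the 6 genes, every called gene of the 6 pathway lists, the 2 most abundant genes of each list and the 3 genes most like Nr3c1 and Tsc22d3. Further genes of the marker lists were named after their values were seen. Some genes that these rules select are not reported here. The members and lists were chosen with earlier results of these data known. Over 11625 genes, same-numbered libraries did not deviate together (r = -0.03), although the Rn45s share sorted by replicate number. Counts of replicates differed by more than sampling noise (chi-square per degree of freedom of 40.7 in WT and 30.7 in cKO). Motifs were counted on GRCm38.p6 RefSeq sequence. Python 3.11.15 was used.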

Additional observations from a re-analysis of the deposited data

How the results depend on the processing

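All settings kept the sign of the change for Nr3c1, Fkbp5, Ddit4, Txnip and Tsc22d3. Of the 6 genes 4 were called in the reported setting, against 1 in edgeR, 2 in limma voom and 0 in edgeR with the replicate block (4 at an unadjusted p below 0.05), a fit that called 28 of all 11625 genes (1562 at an unadjusted p below 0.05), where DESeq2 with the block called 193. Of the pathway genes 9 were called, against 0 in edgeR, 0 in limma voom, 1 in DESeq2 with the replicate block and 1 in edgeR with it. The order of levels held for 5 of 5 neighbours and for 4 when CPM was not divided by length. In edgeR the log2 differences were 0.45 for Fkbp5 (adjusted p = 0.0557), -0.47 for Ddit4 (0.0557), -0.29 for Txnip (0.124) and -0.31 for Tox4 (0.153). In limma voom they were -0.47 for Ddit4 (0.0503), -0.29 for Txnip (0.111) and -0.31 for Tox4 (0.143). With the replicate block, for a pairing that the labels do not explain, edgeR gave 0.49 for Nr3c1 (0.0533), 0.45 for Fkbp5 (0.0855), -0.47 for Ddit4 (0.112), -0.29 for Txnip (0.202) and -0.31 for Tox4 (0.231), and DESeq2 gave -0.29 for Txnip (0.195) and -0.31 for Tox4 (0.361). Total count scaling and no independent filtering gave -0.31 for Tox4 (0.0511 and 0.0821). The length trend, chosen after seeing the data, gave -0.24 for Txnip (0.0611) and -0.30 for Tox4 (0.0567). The cause was not tested.

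Leaving out each library in turn, with the lone library of a group assumed to vary like the others, gave 0.47 to 0.50 for Nr3c1, 0.38 to 0.52 for Fkbp5, -0.21 to -0.07 for Tsc22d3, -0.081 to 0.21 for Sgk1, -0.48 to -0.46 for Ddit4, -0.33 to -0.26 for Txnip and -0.34 to -0.28 for Tox4, with 2 to 3 of the 6 genes, 0 to 5 pathway genes and 5 to 5 neighbour orders. Over all 11625 genes tested, these fits called 184 and 446 without WT replicates 1 and 2, and 126 and 89 without cKO replicates 1 and 2. With all libraries DESeq2 called 431, edgeR 58 and limma voom 61, with 1570 and 1811 at an unadjusted p below 0.05 in DESeq2 and edgeR.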

Other observations

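Immediate early genes, which respond within minutes to handling and receptor signals, were followed as a list. Of 12 listed, 11 were tested and 9 had a negative log2 difference, as did 5788 of all 11625 genes, with a median log2 difference of -0.27 where that of all genes was 0.00. DESeq2 called 3 as decreased (1.57% of all genes), Jun, Egr1 and Btg2, and edgeR called 0, with 6 and 5 at an unadjusted p below 0.05. Jun and Egr1 also stand in the list of repressed targets, as do Fos and Nr4a1, which were not called. The medians of both lists are therefore not separate observations. The summed level of the 12 genes was 746 to 875 CPM in WT and 656 to 709 CPM in cKO. Btg2 alone gave 368 and 436 CPM of it in WT, and 335 and 313 CPM in cKO. The cells were held in fresh medium before labelling in both genotypes, and the part of handling in these values was not tested.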
